A study of Mus musculus with 12 samples.

Results

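Potassium, calcium and sodium channel genes were followed in pancreatic islets of 4 mouse genotypes. A gene belonged to the set when its mouse symbol began with Kcn, Cacna, Cacnb, Cacng or Scn followed by the family letters and number, and when a probe of the array carried a RefSeq accession of that gene. The rule used no measured value. It matched 137 symbols, of which 116 had a named probe, out of 17305 named genes on the array. These 116 genes comprise 82 potassium channel genes (with the non-coding Kcnq1ot1), 22 calcium channel genes and 12 sodium channel genes. Each gene was read from its brightest probe, and the other 21 symbols had no named probe. The genotypes were WT, PPARγ2KO mice without the PPARγ2 isoform, leptin-deficient ob/ob mice, and POKO mice that lack both PPARγ2 and leptin. All 4 were on a mixed background of C57BL/6 and Sv129, fed chow, female per the study's paper and, per the labels, 4 weeks old. Each genotype had 3 arrays in 1 colour, and each array held RNA pooled from the islets of several mice.

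Pancreatic β-cells couple glucose to insulin release through ion channels. ATP made from glucose closes the KATP channel, a complex of the inward rectifier Kir6.2 (Kcnj11) and the sulphonylurea receptor SUR1 (Abcc8), the membrane depolarises, voltage-gated calcium and sodium channels open, and the calcium that enters triggers exocytosis. Voltage-gated and calcium-activated potassium channels then repolarise the membrane. Isolated islets also carry vessels, nerves, ductal and acinar remnants and immune cells, which have channels of their own.

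On every array 41174 probes were read, and the software called 54.3 to 64.9% of the spots well above background. Values are log2 signals after quantile normalization, given as mean ± SD of n = 3 arrays, and a log2 difference is given ± SE of the fit. A gene rose or fell when limma gave an absolute log2 difference of at least 1 with an adjusted p of at most 0.05 over the 41174 probes. The Pparg probe read 8.85 to 8.98 in WT, 6.60 to 7.44 in PPARγ2KO, 8.54 to 9.77 in ob/ob and 6.41 to 7.14 in POKO, so both genotypes without PPARγ2 lay below both with it. Where that probe lies relative to the deleted part is not given in the sources used here. Genotypes sat at fixed positions on the slides, so position and genotype cannot be told apart. The third WT array stood apart in the channel genes. It held the highest WT value of 57 of the 116 genes, beside 35.9% of all named genes. The same held for 40 of the 58 brighter ones and for 24 of 31 listed islet and lymphocyte channels. For these 2 sets the share among named genes of like signal was not taken.

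Of the 116 genes, 39 were well above background on all 12 arrays and another 21 on all 3 arrays of at least 1 genotype. Another 23 were so on other arrays only, and 33 on no array. The two-pore potassium channels, which set the resting potential, split cleanly: 6 of 9 (Kcnk1, Kcnk3, Kcnk5, Kcnk6, Kcnk12, Kcnk13) were well above background everywhere and 3 nowhere. Of the 35 pore-forming subunits of voltage-gated potassium (Kv) channels, 7 were well above background on all arrays, among them Kcnh2 and Kcnh6 (ERG channels) and Kcnq1. Another 18 were on no array, with Kcna3, Kcnd2, Kcnd3 and Kcnq3 to Kcnq5 among them. Of 12 auxiliary Kv subunits, by contrast, 7 were well above background on all arrays. Among calcium channels this held for the pore-forming subunits Cacna1a (P/Q-type) and Cacna1d (L-type, Cav1.3), for Cacnb1, Cacnb2 and Cacnb3 (cytosolic β subunits) and for Cacna2d1 and Cacna2d2 (α2δ subunits). Cacna1e (R-type) was on no array. Among sodium channels Scn4a and Scn8a were among those well above background on all arrays.

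**Figure D1:**
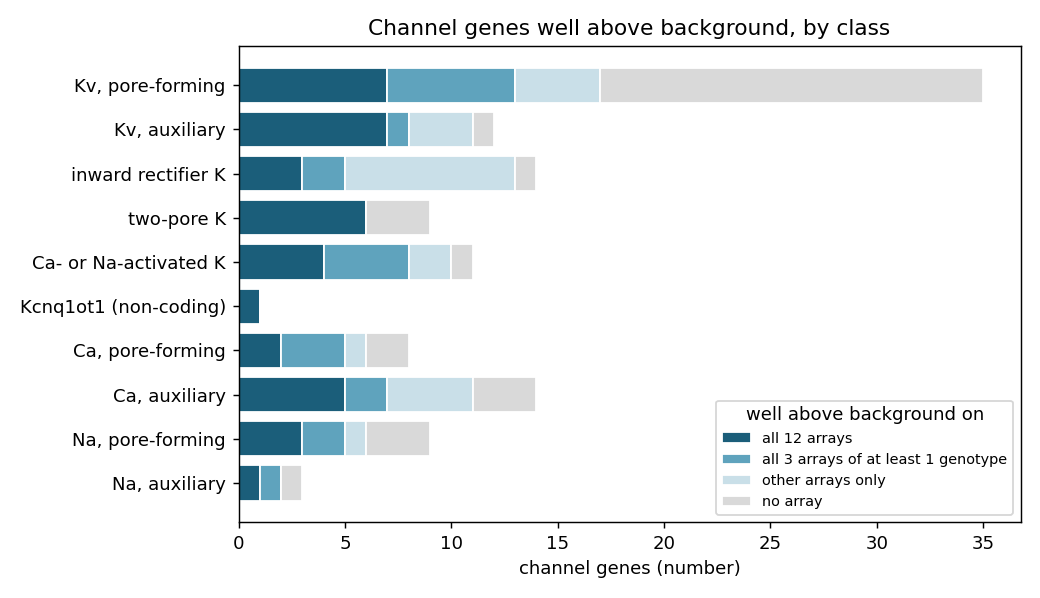
Number of channel genes (x axis) in each class (y axis), split by the arrays on which the brightest probe was well above background. Pore-forming Kv subunits were the class with the most genes on no array (18 of 35), while 7 of 12 auxiliary Kv subunits were detected on all 12 arrays.

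The comparison of ob/ob with WT islets asks which genes change early in leptin-deficient obesity. Of the channel genes 7 rose and 4 fell, 11 of 116, or 9.48%, beside 5.47% of all probes and 6.68% of named genes. Rises took 4.51% and falls 2.17% of the named genes. At an unadjusted p below 0.05 there were 36 channel genes, 31.0% beside 37% of named genes, and in 37, or 31.9% beside 39.1%, the WT and ob/ob arrays did not overlap. Those that rose were Kcnmb1, Cacna1s, Kcnip1, Kcnj8, Kcne3, Kcnab2 and Cacng2, and those that fell were Kcnj12, Kcnj3, Cacna2d2 and Kcnk6. Counting every gene, 72 of 116 (62.1%) had a higher mean in ob/ob, beside 43.9% of named genes, and the median log2 difference was 0.34 beside −0.06. Among the 58 channel genes that were brighter over all arrays 41 were higher in ob/ob, with a median of 0.46 beside −0.05 for the 13077 named genes on the same side of that signal. The median was 0.00 once genes not well above background were put at their limit and 0.02 after normexp background correction. That limit sets genes above background in neither genotype to 0, which pulls the median to 0, and named genes were not put through it. Among the 39 genes well above background on all 12 arrays the median was 0.42, and 27 were higher in ob/ob.

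The count rested on few arrays. It was 1 (Kcnmb1) without WT array 1, without WT array 2 or without ob/ob array 2, 2 without ob/ob array 3, and 4 to 5 without any 1 of the POKO arrays, which enter only through the common error. Without the third WT array it was 18, and all 11 genes were still among them. Those added were Cacna2d1, Kcnh1, Kcnj10, Kcnk12, Kcnma1, Scn2b and Scn8a, and named genes then passed at 11.8%.

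**Figure D2:**
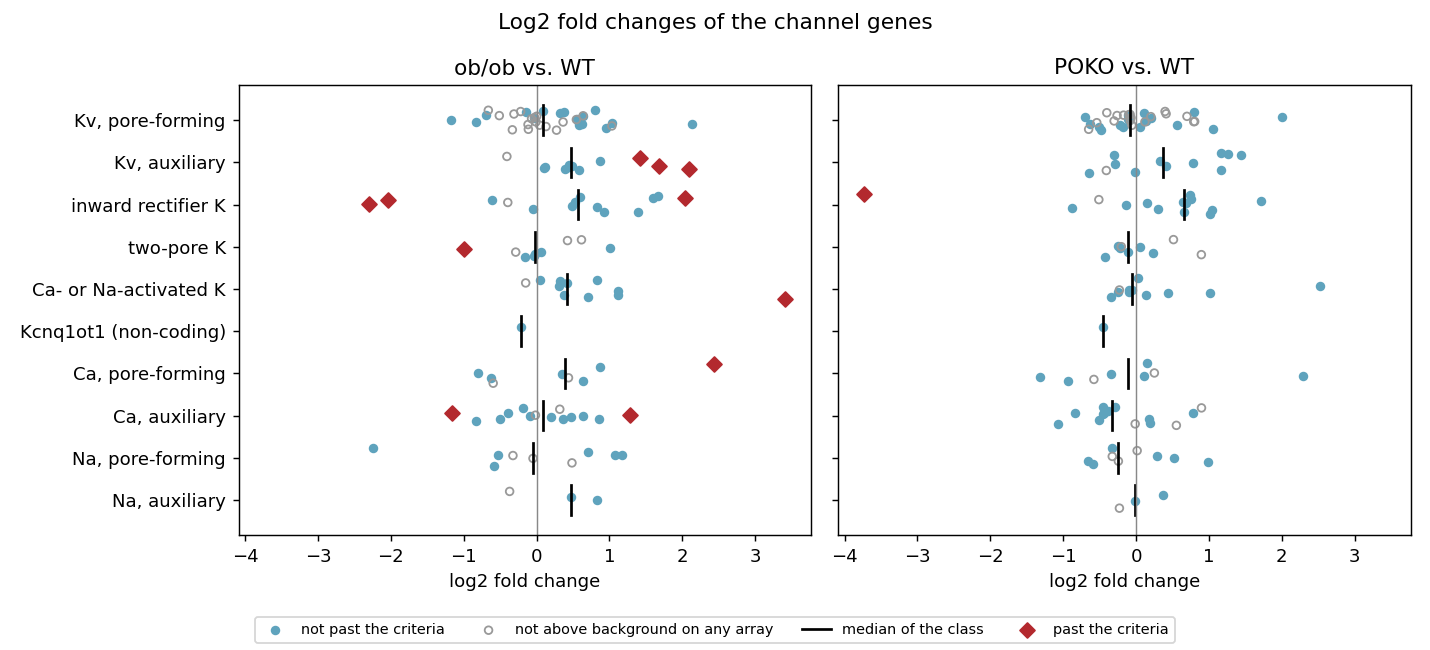
Log2 fold change (x axis) of each of the 116 channel genes by class (y axis) for ob/ob and for POKO, each against WT, where diamonds mark genes past the criteria, open circles genes not above background on any array, and bars class medians. Kcnmb1, above background on no WT array, is drawn at its fitted difference. In ob/ob 7 genes rose and 4 fell, and in POKO 1 gene, the inward rectifier Kcnj12, fell.

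Inward rectifiers conduct potassium best near the resting potential, and the 2 largest falls among the genes past the criteria were in this family. Kcnj12 encodes Kir2.2, a strong inward rectifier. Its log2 signal was 6.63, 6.98 and 7.38 on the WT arrays, 6.52, 6.96 and 6.62 in PPARγ2KO, 4.00, 5.18 and 4.93 in ob/ob, and 2.37, 4.31 and 3.12 in POKO. No leptin-deficient array reached the WT or PPARγ2KO range. The difference of ob/ob from WT was −2.30 ± 0.47 (adjusted p = 0.0271) and that of POKO from WT −3.73 ± 0.47 (adjusted p = 0.0314). Within slides the ob/ob difference was −2.63, −1.80 and −2.45, and the POKO difference −4.26, −2.67 and −4.26. In POKO the probe was well above background on 1 of 3 arrays, so the POKO difference was read partly near background. PPARγ2KO differed from WT by −0.30 ± 0.47 (adjusted p = 0.868).

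The promoter of Kcnj12, the channel gene that fell in both leptin-deficient genotypes, is shown from RefSeq (GRCm38.p6, chr11:61065554-61065853, + strand). It runs from 250 bases before the annotated start to 50 bases from the start on, and capitals mark those 50 bases.
Kcnj12: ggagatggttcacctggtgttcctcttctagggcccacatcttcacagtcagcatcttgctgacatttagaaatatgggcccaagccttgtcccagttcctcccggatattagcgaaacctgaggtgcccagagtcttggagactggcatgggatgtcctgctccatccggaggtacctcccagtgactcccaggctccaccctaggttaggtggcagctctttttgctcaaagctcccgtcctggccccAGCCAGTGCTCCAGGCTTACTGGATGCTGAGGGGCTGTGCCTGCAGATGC

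Kcnj3 (Kir3.1, a G-protein-gated subunit) was 4.19, 5.06 and 4.24 in WT, 3.34, 4.25 and 3.43 in PPARγ2KO, 1.24, 3.02 and 3.13 in ob/ob, and 3.37, 3.97 and 3.52 in POKO. It was lower in ob/ob than on any WT array, by 2.04 ± 0.50 on the log2 scale (log2 difference −2.04, adjusted p = 0.0373), and 1 of 3 ob/ob arrays was well above background. Its POKO arrays lay between, at −0.88 ± 0.50 from WT (adjusted p = 0.425). Of the other G-protein-gated subunits among the listed channels, Kcnj5 was above background on no array and Kcnj6 on 1 ob/ob array only. The Kcnj6 mean of 3.14 ± 0.21 in ob/ob compared with 2.30 ± 0.05 in WT (adjusted p = 0.048, under the required size). Kcnj15 was near background on 11 of 12 arrays and showed no difference past the criteria.

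Kcnj8 encodes Kir6.1, the pore of the vascular type of KATP channel, and went the other way. It was 8.17, 7.77 and 9.61 in WT, 8.96, 10.57 and 9.98 in PPARγ2KO, 10.88, 10.11 and 10.68 in ob/ob, and 10.03, 10.62 and 10.05 in POKO. All ob/ob and POKO arrays exceeded all WT arrays. Kcnj8 rose by 2.04 ± 0.52 in ob/ob (adjusted p = 0.04, or 0.0518 with the replicate number as a block). A second Kcnj8 probe gave 2.01 (adjusted p = 0.053). The POKO difference of 1.72 ± 0.52 and the PPARγ2KO difference of 1.32 ± 0.52 were not past the criteria (adjusted p = 0.155 and 0.501).

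Abcc9, which encodes SUR2, the regulatory partner of Kir6.1, is the direct neighbour of Kcnj8 and was read as a partner gene outside the set. It was 4.27, 3.53 and 4.97 in WT, 5.05, 6.81 and 5.54 in PPARγ2KO, 6.37, 5.93 and 5.76 in ob/ob, and 5.53, 6.11 and 5.43 in POKO. All arrays of the other genotypes exceeded the WT arrays. It rose by 1.76 ± 0.48 in ob/ob (adjusted p = 0.047, or 0.0704 with the block). The β-cell pair, also direct neighbours, showed smaller differences that did not pass. Kcnj11 was 6.42, 6.52 and 7.31 in WT, 7.12, 7.01 and 7.35 in PPARγ2KO, 6.89, 7.28 and 7.68 in ob/ob, and 6.37, 6.88 and 6.58 in POKO. Its ob/ob difference was 0.54 ± 0.27 (adjusted p = 0.213), and that of Abcc8 was 1.12 ± 0.40 (adjusted p = 0.0934), with WT and ob/ob overlapping in both genes.

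The promoters of Kcnj8 (chr6:142571565-142571864, − strand) and Abcc9 (chr6:142702225-142702524, − strand) from RefSeq (GRCm38.p6) are shown because both subunits of this channel rose, with capitals marking the 50 bases from the start on.
Kcnj8: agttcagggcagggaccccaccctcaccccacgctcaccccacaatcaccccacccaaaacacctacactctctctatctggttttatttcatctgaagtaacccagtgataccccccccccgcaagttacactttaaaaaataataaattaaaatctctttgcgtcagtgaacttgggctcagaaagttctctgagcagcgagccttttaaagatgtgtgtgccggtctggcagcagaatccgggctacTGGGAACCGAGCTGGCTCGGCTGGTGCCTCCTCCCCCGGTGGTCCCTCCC
Abcc9: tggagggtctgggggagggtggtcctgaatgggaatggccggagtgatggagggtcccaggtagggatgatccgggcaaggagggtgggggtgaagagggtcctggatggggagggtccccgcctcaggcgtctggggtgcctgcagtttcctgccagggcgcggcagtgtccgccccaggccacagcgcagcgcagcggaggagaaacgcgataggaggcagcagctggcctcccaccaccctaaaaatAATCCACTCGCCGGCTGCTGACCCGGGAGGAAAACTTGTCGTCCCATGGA

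Kcnmb1, which encodes the β1 subunit of the large-conductance calcium-activated potassium (BK) channel and is best known from smooth muscle, rose in ob/ob. It was 1.42, 1.25 and 1.22 in WT, 2.56, 4.26 and 3.14 in PPARγ2KO, 4.43, 4.43 and 5.26 in ob/ob, and 4.26, 3.32 and 3.89 in POKO. The WT arrays lay below every array of the other genotypes. None of the WT arrays was well above background, against 1 of 3 in PPARγ2KO and 3 of 3 in ob/ob and in POKO. Set against the lowest signal called above background on the WT arrays, the ob/ob signal of Kcnmb1 was at least 1.86-fold higher. This bound is under the required log2 difference of 1. Kcnmb1 passed on the difference fitted by limma (adjusted p = 0.0117), which takes the WT values below background as they are. The adjusted p-values of this gene do not test the bounds. The POKO signal was at least 1.01-fold higher and did not pass (adjusted p = 0.0578). No fold is given for PPARγ2KO, whose mean lay below that limit (adjusted p = 0.299). The pore subunit Kcnma1 did not pass, at 4.29 ± 0.72 in WT, 4.54 ± 0.29 in PPARγ2KO, 5.41 ± 0.82 in ob/ob and 4.33 ± 0.25 in POKO (ob/ob vs. WT 1.11 ± 0.44, adjusted p = 0.124).

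Kcnip1 encodes KChIP1, a calcium-binding subunit of A-type Kv channels. It was 7.39, 7.78 and 8.12 in WT, 8.08, 8.65 and 8.13 in PPARγ2KO, 8.86, 10.12 and 10.59 in ob/ob, and 9.12, 8.77 and 8.91 in POKO. Every array of both leptin-deficient genotypes exceeded every WT and PPARγ2KO array. It rose by 2.10 ± 0.39 in ob/ob (adjusted p = 0.0238) and was 1.17 ± 0.39 higher in POKO without passing (adjusted p = 0.19). Its pore partners Kcnd2 and Kcnd3 were above background on no array.

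Kcnmb1 and Kcnip1 overlap in the genome. In RefSeq (GRCm38.p6) Kcnmb1 starts on the + strand of chromosome 11 between the first and the second annotated start of Kcnip1, which runs on the − strand, and lies within its span. The promoters are chr11:33962763-33963062 for Kcnmb1 and, for starts 1 to 3 of Kcnip1, chr11:33993144-33993443, chr11:33843637-33843936 and chr11:33680633-33680932. They are shown because these overlapping genes both rose and because the sources used here do not say which start the Kcnip1 transcript came from. Capitals again mark the 50 bases from the start on. Among the 17 pairs of directly neighbouring or overlapping genes in the channel and partner lists, 13 differed in the same direction between ob/ob and WT. In 2 pairs both genes passed (Kcnip1 with Kcnmb1, Kcnj8 with Abcc9). Some genes stood in several pairs, and the shares over neighbouring pairs of all named genes were not taken. These counts therefore cannot show whether neighbouring channel genes differed together more than other neighbours.
Kcnmb1: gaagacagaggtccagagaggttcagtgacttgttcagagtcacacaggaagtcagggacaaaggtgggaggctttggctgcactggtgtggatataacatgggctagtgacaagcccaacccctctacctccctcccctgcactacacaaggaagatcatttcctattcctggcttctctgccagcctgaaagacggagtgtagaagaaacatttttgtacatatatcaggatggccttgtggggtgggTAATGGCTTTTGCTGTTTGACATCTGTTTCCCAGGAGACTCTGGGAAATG
Kcnip1 start 1: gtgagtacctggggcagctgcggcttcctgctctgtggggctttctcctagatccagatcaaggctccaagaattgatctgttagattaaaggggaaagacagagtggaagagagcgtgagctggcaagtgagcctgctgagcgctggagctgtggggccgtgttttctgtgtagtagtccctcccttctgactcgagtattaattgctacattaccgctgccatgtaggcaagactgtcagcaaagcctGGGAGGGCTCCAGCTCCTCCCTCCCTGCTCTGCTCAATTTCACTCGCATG
Kcnip1 start 2: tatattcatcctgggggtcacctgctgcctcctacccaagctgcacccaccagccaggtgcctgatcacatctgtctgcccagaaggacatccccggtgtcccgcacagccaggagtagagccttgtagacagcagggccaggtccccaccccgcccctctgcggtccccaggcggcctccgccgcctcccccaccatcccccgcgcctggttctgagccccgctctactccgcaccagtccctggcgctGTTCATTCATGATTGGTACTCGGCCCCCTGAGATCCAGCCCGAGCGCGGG
Kcnip1 start 3: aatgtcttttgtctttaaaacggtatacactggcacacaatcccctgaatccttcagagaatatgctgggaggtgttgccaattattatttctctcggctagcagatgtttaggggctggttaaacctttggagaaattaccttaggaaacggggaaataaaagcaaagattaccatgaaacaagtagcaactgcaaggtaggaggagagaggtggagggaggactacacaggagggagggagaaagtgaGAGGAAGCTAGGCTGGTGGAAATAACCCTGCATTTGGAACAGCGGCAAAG

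Both strands of all these windows were searched for AGGTCA, the half-site that nuclear receptors such as PPARγ bind, and for GGGCGG, the GC box of Sp1. None of the 7 windows held the half-site. The GC box was found 1 time in Kcnip1 start 2 and 1 time in Abcc9. Of all 32851 promoter windows of this length 16.3% held the half-site and 35.7% the GC box. Among the 120 windows of the 86 channel genes in the RefSeq table the shares were 7.5% and 47.5%.

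**Figure D3:**
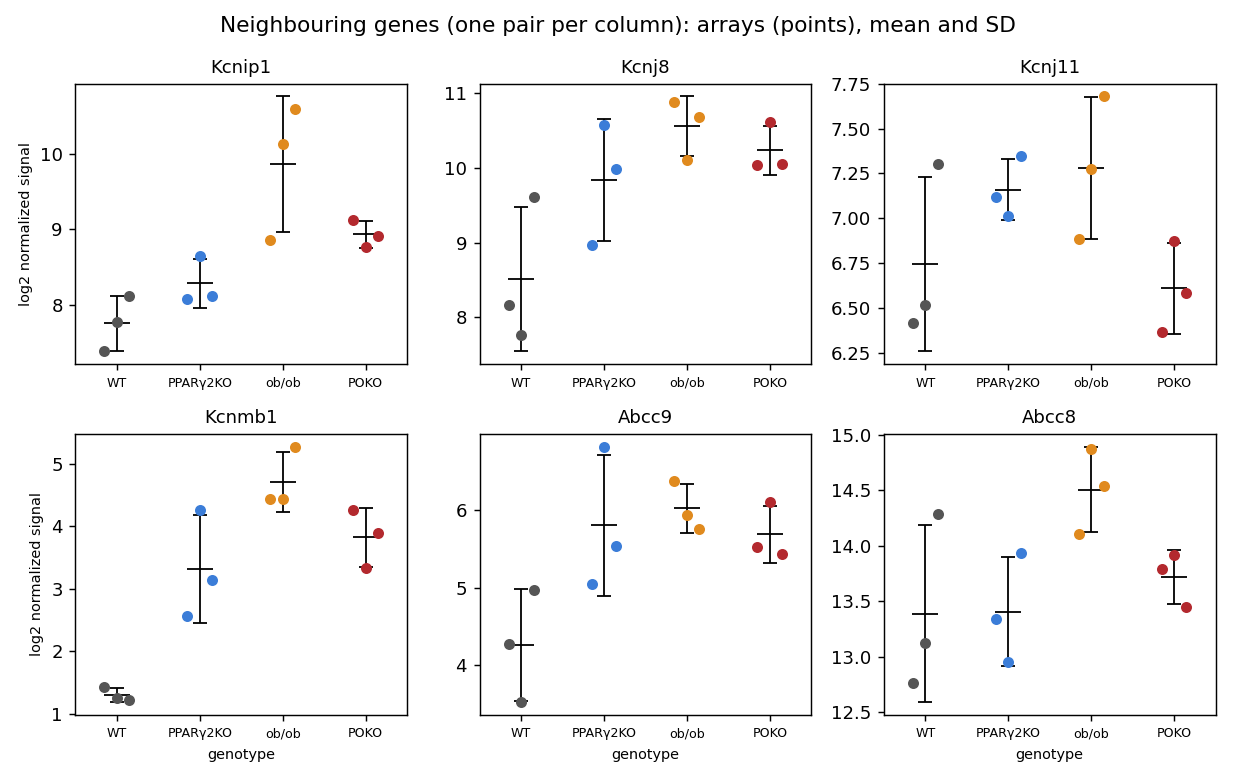
Log2 normalized signal (y axis) by genotype (x axis) for 3 pairs of neighbouring genes, one pair per column, with points for arrays and bars for mean and SD (n = 3). In the Kcnip1 and Kcnmb1 pair and the Kcnj8 and Abcc9 pair every ob/ob and POKO array exceeded every WT array, while WT and ob/ob overlapped in Kcnj11 and Abcc8.

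Of the other auxiliary Kv subunits, 2 rose. Kcne3 (MiRP2), a membrane subunit that keeps Kcnq1 channels open in epithelia, was 7.23, 7.74 and 8.46 in WT, 8.59, 8.20 and 9.13 in PPARγ2KO, 9.12, 9.36 and 10.003 in ob/ob, and 9.03, 9.48 and 9.22 in POKO. The leptin-deficient arrays all lay above WT. It rose by 1.69 ± 0.35 in ob/ob (adjusted p = 0.0279), its second probe gave 1.60 (adjusted p = 0.028), and POKO was 1.44 ± 0.35 higher than WT without passing (adjusted p = 0.115). Kcnab2 (Kvβ2), a cytosolic subunit of Kv1 channels, was 4.45, 4.12 and 4.73 in WT, 4.18, 5.31 and 4.16 in PPARγ2KO, 5.93, 5.51 and 6.13 in ob/ob, and 6.18, 5.06 and 5.86 in POKO. It rose by 1.42 ± 0.38 in ob/ob (adjusted p = 0.0435, or 0.0655 with the block). In all, 11 of the 12 auxiliary Kv genes were higher in ob/ob than in WT, with a class median of 0.47, beside 43.9% and −0.06 for named genes. In other classes 4 of 9 two-pore, 4 of 9 pore-forming sodium, 20 of 35 pore-forming Kv and 10 of 11 calcium- or sodium-activated channel genes were higher.

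No pore-forming Kv gene passed both criteria. Kcnq1 (KvLQT1), the partner of Kcne3, was 10.88, 11.03 and 10.74 in WT, 11.06, 10.83 and 10.60 in PPARγ2KO, 10.0998, 10.08 and 9.98 in ob/ob, and 10.06, 10.46 and 10.22 in POKO. No leptin-deficient array overlapped with WT or PPARγ2KO. The ob/ob difference of −0.83 ± 0.14 had an adjusted p of 0.0192 in limma and was under the required size, and the POKO difference was −0.64 ± 0.14 (adjusted p = 0.0938). Its antisense transcript Kcnq1ot1 differed by −0.21 ± 0.28 in ob/ob (adjusted p = 0.647). Kcnh1 (EAG1) differed by 1.04 ± 0.30 on its brightest probe (adjusted p = 0.0556) and by 1.30 on a second one, which passed (adjusted p = 0.034). Kcnh2 and Kcnh6 were 0.63 ± 0.37 and 0.64 ± 0.36 higher in ob/ob without passing (adjusted p = 0.277 and 0.265). Kcnb2 was above background on 2 arrays in all.

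Kcnk6 (TWIK2) was the only two-pore channel that fell. It was 9.61, 9.46 and 8.66 in WT, 9.05, 8.79 and 8.82 in PPARγ2KO, 8.70, 8.11 and 7.91 in ob/ob, and 8.74, 8.82 and 8.90 in POKO. WT and ob/ob overlapped by 1 array each, and the difference of −1.0004 ± 0.26 (adjusted p = 0.0427) lay at the size limit. Kcnk3 (TASK1) was 8.25 ± 0.88 in WT, 8.26 ± 0.14 in PPARγ2KO, 8.23 ± 0.14 in ob/ob and 8.004 ± 0.26 in POKO. Of the small- and intermediate-conductance calcium-activated channels, Kcnn1 and Kcnn2 differed by 0.04 ± 0.35 and 0.31 ± 0.31 between ob/ob and WT, and Kcnn4, used by lymphocytes and epithelia, by 0.42 ± 0.17 (adjusted p = 0.13). Kcnn3 varied from 1.09 to 5.05 within WT alone.

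**Figure D4:**
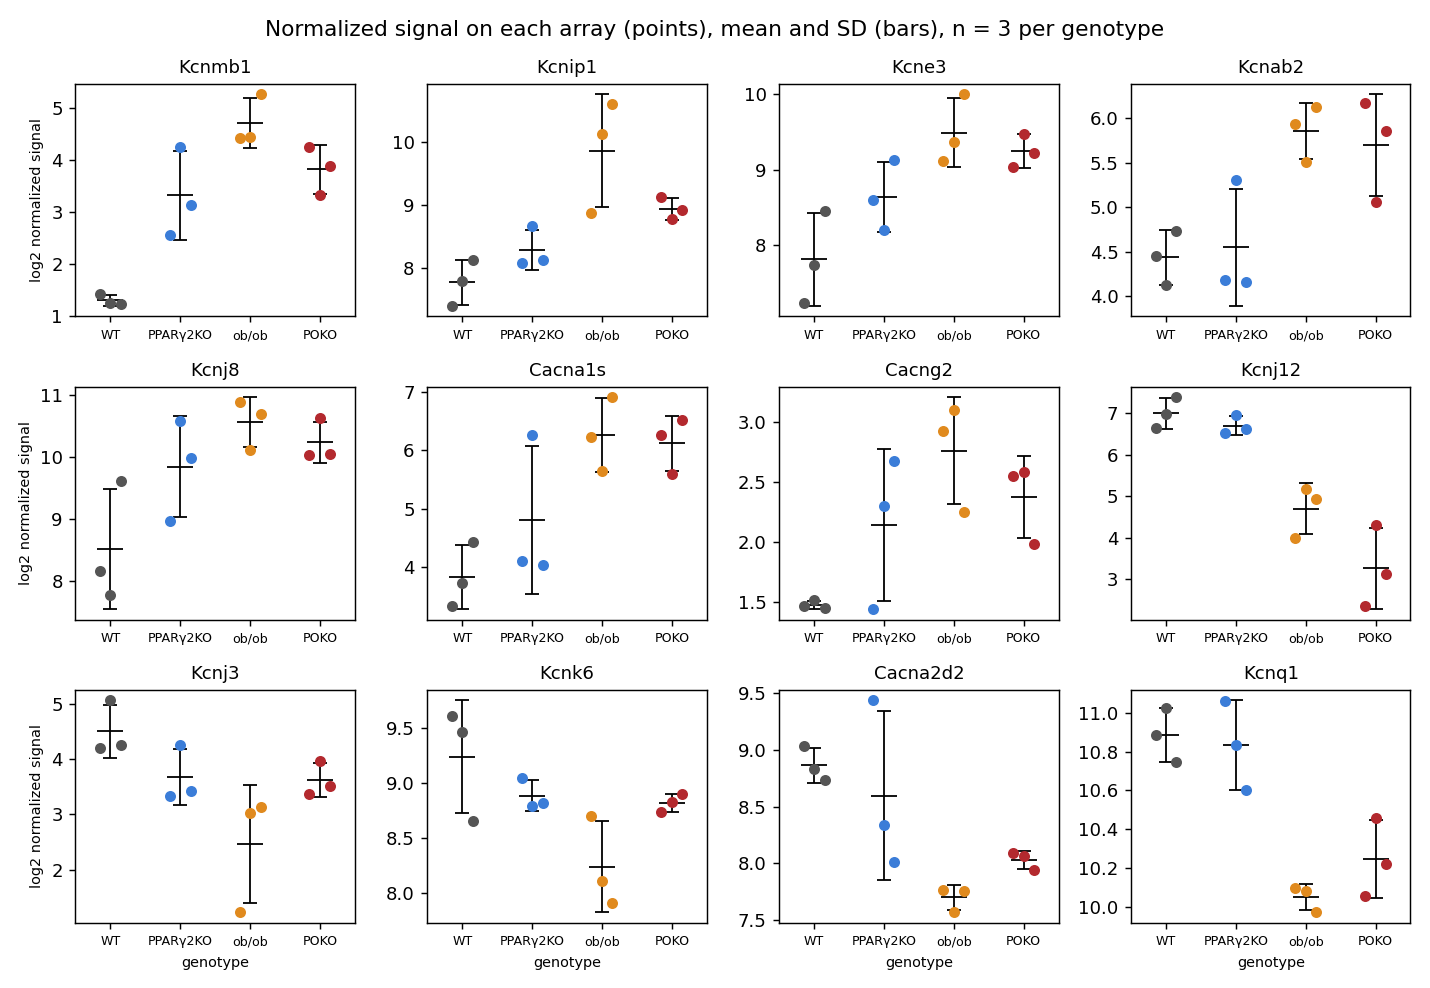
Log2 normalized signal (y axis, own scale in each panel) by genotype (x axis) for Kcnq1 and the 11 channel genes that rose or fell in ob/ob, with points for arrays and bars for mean and SD (n = 3). Kcnj12 was 7.0005 in WT, 6.70 in PPARγ2KO, 4.71 in ob/ob and 3.27 in POKO.

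Among calcium channel genes, the pore subunits of the β-cell did not pass in ob/ob. Cacna1d was 5.81 ± 0.70 in WT, 5.91 ± 0.31 in PPARγ2KO, 6.45 ± 0.52 in ob/ob and 5.92 ± 0.18 in POKO (ob/ob vs. WT 0.64 ± 0.36, adjusted p = 0.258). Cacna1a was 5.67 ± 0.60, 4.62 ± 0.48, 4.87 ± 0.11 and 4.35 ± 0.13 in the same order, lower than on any WT array in each of the other genotypes. Its difference from WT was −1.05 ± 0.30 in PPARγ2KO, −0.80 ± 0.30 in ob/ob and −1.32 ± 0.30 in POKO (adjusted p = 0.457, 0.11 and 0.102), and it passed in POKO once dim probes were left out. Cacna1h (T-type) differed by 0.35 ± 0.35 between ob/ob and WT. Cacna1e had an adjusted p of 0.0348 in limma without being above background on any array, so no fold is given.

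Cacna1s, the L-type pore subunit of skeletal muscle, rose. It was 3.34, 3.73 and 4.42 in WT, 4.11, 6.27 and 4.03 in PPARγ2KO, 6.23, 5.65 and 6.91 in ob/ob, and 6.26, 5.59 and 6.51 in POKO. The leptin-deficient arrays exceeded all WT arrays, and the second PPARγ2KO array lay among them. The ob/ob difference was 2.43 ± 0.61 (adjusted p = 0.0381, or 0.0541 with the block). A second, dimmer Cacna1s probe gave −0.34 (adjusted p = 0.701). Markers of skeletal muscle, to which this subunit belongs, did not rise in any of 5 genes, and 3 of them were above background on no WT array. Their summed linear signal was 304 to 359 in WT, 267 to 297 in ob/ob and 494 to 769 in POKO. The median log2 difference of these 5 markers from WT had the opposite signs, at 0.14 in ob/ob and −0.23 in POKO. The part of muscle cells in the Cacna1s difference was not tested.

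Of the auxiliary calcium channel subunits Cacna2d2 fell and Cacng2 rose. Cacna2d2 was 9.04, 8.83 and 8.73 in WT, 9.44, 8.34 and 8.01 in PPARγ2KO, 7.77, 7.57 and 7.76 in ob/ob, and 8.09, 8.07 and 7.94 in POKO. All leptin-deficient arrays lay below WT, and the ob/ob difference was −1.17 ± 0.30 (adjusted p = 0.0402). Its 3 other probes gave −0.14, −0.29 and 0.24, none past the criteria. Cacng2 (stargazin) passed (adjusted p = 0.0392, or 0.0526 with the block) with 1.46, 1.51 and 1.45 in WT and 2.93, 3.09 and 2.25 in ob/ob, but was above background on no array, so no fold is given. Its 2 other probes did not pass. Cacna2d1, the other α2δ subunit on all arrays, was 8.13 ± 0.64 in WT and 8.99 ± 0.01 in ob/ob (0.86 ± 0.25, adjusted p = 0.0562). Cacnb2 and Cacnb3 differed by 0.37 ± 0.32 and 0.63 ± 0.27 (adjusted p = 0.465 and 0.15).

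No sodium channel gene passed. Scn8a (Nav1.6) was 5.96, 6.13 and 6.82 in WT, 6.12, 6.49 and 7.01 in PPARγ2KO, 6.91, 7.66 and 7.57 in ob/ob, and 6.75, 6.64 and 6.37 in POKO. The ob/ob arrays exceeded all WT arrays by a mean of 1.08 ± 0.30 (adjusted p = 0.0508, or 0.0436 with the block). Scn3a, a main sodium channel of islet cells, was 3.27 ± 1.29 in WT and 4.44 ± 0.39 in ob/ob (1.18 ± 0.56, adjusted p = 0.185) and was well above background on 1 of 3 WT arrays. The auxiliary Scn3b was above background on no array.

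Of 35 listed channels known from islet cells or lymphocytes 31 had a probe, and the plot of the listed channels shows 29 of them. In ob/ob 2 of them rose (Kcnip1, Kcnab2), 1 fell (Kcnj12), and 22 of 31 were higher than in WT, with a median of 0.42. Over all named genes 6.68% passed there, 43.9% were higher, and the median was −0.06. In POKO 1 of 31 fell, 15 were higher than in WT, and the median was −0.02, beside 0.191% passed, 40.8% higher and −0.06 for named genes. Between POKO and ob/ob none passed in limma (0% of named genes), 8 of 31 were higher and 23 lower in POKO, and the median was −0.49, beside 52.5% higher and 0.01 for named genes.

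**Figure D5:**
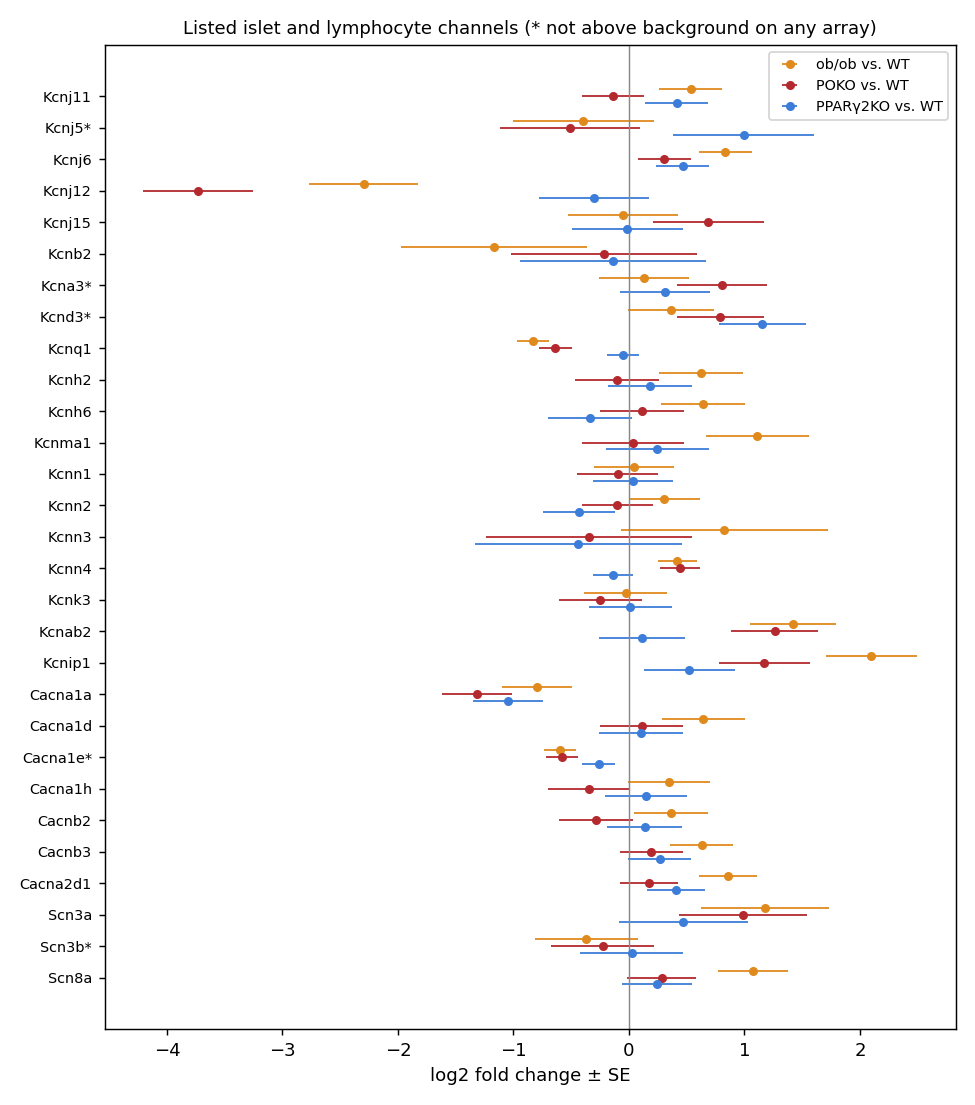
Log2 fold change ± SE (x axis) from WT of ob/ob, POKO and PPARγ2KO for 29 listed islet and lymphocyte channels (y axis), where an asterisk marks genes not above background on any array. Kcnj12 lay at −2.30 in ob/ob and −3.73 in POKO, and Kcnip1 at 2.10 in ob/ob.

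Of 41 other ion transport genes that work with these channels, 6 rose and 1 fell in ob/ob vs. WT, 7 of 41 beside 6.68% of named genes (4.51% rose and 2.17% fell). Beside Abcc9 the cation channels Trpc4 (2.37 ± 0.53, adjusted p = 0.0314), Trpm2 (1.17 ± 0.27, adjusted p = 0.0325) and Trpv2 (1.13 ± 0.29, adjusted p = 0.0393, or 0.0621 with the block) rose. So did Asic1, an acid-sensing sodium channel (1.81 ± 0.38, adjusted p = 0.0277), and Atp1b1, the β subunit of the sodium pump (1.22 ± 0.24, adjusted p = 0.0262). Cftr, the chloride channel of duct cells, fell (−1.33 ± 0.35, adjusted p = 0.0436, or 0.0659 with the block). None of the 41 passed in any other comparison.

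Markers of some other cells moved between the same genotypes. The counts in ob/ob stand beside 4.51% of named genes that rose and 2.17% that fell. No marker of alpha, delta, PP, acinar or neuronal cells, macrophages or fibroblasts passed in ob/ob vs. WT. Of the T cell markers 5 of 6 rose in ob/ob, with a summed linear signal of 412 to 428 in WT, 255 to 1393 in PPARγ2KO, 1020 to 2638 in ob/ob and 593 to 1896 in POKO. Of the B cell markers 4 of 6 rose in ob/ob. Their sum was 87.3 to 106 in WT, 62.9 to 2814 in PPARγ2KO (median 121), 1254 to 3809 in ob/ob and 1147 to 3470 in POKO. Kcna3, the main Kv channel of T cells, was above background on no array. Of the endothelial markers 1 of 5, Cdh5, rose in ob/ob. Their sum was 2138 to 4976 in WT, 3708 to 5186 in PPARγ2KO, 5305 to 6583 in ob/ob and 4214 to 5524 in POKO. Of the smooth muscle markers none of 4 rose, and their sum was 8026 to 8814 in WT and 6207 to 8045 in ob/ob. The median log2 difference of these 4 genes from WT went the other way in ob/ob, at 0.87. It was 0.72 in PPARγ2KO and 0.006 in POKO. Of the duct markers 2 of 5, Krt19 and Cftr, fell in ob/ob, and Cftr is the same gene as the ion transport gene above. The duct sum was 61437 to 78575 in WT, 52888 to 69612 in PPARγ2KO, 21339 to 38012 in ob/ob and 33304 to 45526 in POKO. Erythroid markers rose in 2 of 2 genes in ob/ob, and 1 of 3 Schwann cell markers fell. The erythroid sum was 158 to 673 in WT, 323 to 828 in PPARγ2KO, 1597 to 5568 in ob/ob and 1100 to 2901 in POKO. Of the β-cell markers 1 of 8 rose, and their sum was 633670 to 873668 in WT and 881247 to 941647 in ob/ob. The part of these cells in the differences of the channel genes was not tested, and in whole islets fewer cells of a type and less RNA per cell cannot be told apart.

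In POKO vs. WT 1 of 116 channel genes passed, Kcnj12, or 0.862% beside 0.172% of all probes and 0.191% of named genes. This call was lost without WT array 1 (adjusted p = 0.053), WT array 2 (0.0843), ob/ob array 2 (0.0555), POKO array 1 (0.0925) or POKO array 3 (0.0705). At an unadjusted p below 0.05 there were 21 genes, 18.1% beside 17.2% of named genes, and in 36 the groups did not overlap, 31.0% beside 31.8%. In the same comparison 55 of 116 genes were higher in POKO and the median was −0.03, beside −0.06 for named genes. Of the genes that rose in ob/ob, Cacna1s was 2.29 ± 0.61 higher, Kcne3 1.44 ± 0.35 and Kcnab2 1.26 ± 0.38, none of them past the criteria (adjusted p = 0.122, 0.115 and 0.15).

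In PPARγ2KO vs. WT no channel gene passed in limma, as no probe of the array did (0%). At an unadjusted p below 0.05 there were 10 of 116 genes, 8.62% beside 8.83% of named genes. Beside Cacna1a and Kcnj8, given above, Kcnk5, a pH-sensitive two-pore channel detected on all 12 arrays, was −0.40 ± 0.16 from WT (adjusted p = 0.502).

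In POKO vs. ob/ob, the comparison that adds the loss of PPARγ2 to leptin deficiency, no channel gene passed in limma, beside 0.00243% of all probes and 0% of named genes. At an unadjusted p below 0.05 there were 12 genes, 10.3% beside 11.8% of named genes. Cacna2d1 (−0.69 ± 0.25) and Scn8a (−0.79 ± 0.30), both detected on all 12 arrays, had an adjusted p of 0.531 each. So had Kcnj12 (−1.44 ± 0.47), which 1 of 3 POKO arrays detected. Of the 116 genes 79 were lower in POKO than in ob/ob and 31.9% were higher, beside 52.5% of named genes, and the median was −0.18 beside 0.01. Among the brighter 58 genes 45 were lower, with a median of −0.25. The median over all channel genes was −0.02 after normexp correction and 0.00 with genes near background at their limit, a step that again pulls the median to 0. Among the 39 genes well above background on all 12 arrays the median was −0.25, and 30 were lower in POKO. Kcnj11 was 0.67 lower (log2 difference −0.67 ± 0.27, adjusted p = 0.531). Its groups did not overlap, which held for 16.4% of channel genes beside 21.6% of named genes.

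Against PPARγ2KO no channel gene passed in limma in either leptin-deficient genotype, beside 0.00486% of all probes in each comparison and 0.00578% (ob/ob) and 0% (POKO) of named genes. At an unadjusted p below 0.05 there were 27 genes in ob/ob (23.3% beside 25.1%) and 10 in POKO (8.62% beside 12.9%). The ob/ob difference was −0.78 ± 0.14 for Kcnq1 (adjusted p = 0.0802), −1.99 ± 0.47 for Kcnj12 (0.095) and −0.58 ± 0.14 for Cacnb1 (0.096). In POKO the same genes gave values that did not pass either: Kcnj12 (−3.43 ± 0.47, adjusted p = 0.118, with 1 of 3 POKO arrays above background), Cacnb1 (−0.59 ± 0.14, 0.25) and Kcnq1 (−0.59 ± 0.14, 0.254). Both comparisons share the PPARγ2KO arrays.

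The interaction, the step from ob/ob to POKO minus the step from WT to PPARγ2KO, was past the criteria for no channel gene in limma and for 0% of all probes, with 13 genes at an unadjusted p below 0.05 (11.2% beside 16.1% of named genes). Cacna2d1, detected on all 12 arrays, gave −1.10 ± 0.35 (adjusted p = 0.279). For Kcnmb1 (adjusted p = 0.221) no size is given, since it was above background on no WT array and on 1 of 3 in PPARγ2KO.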

How the data were processed

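Islet RNA was hybridised to 12 Agilent arrays in 1 colour, 3 per genotype. Per the file headers, Feature Extraction 10.1.1.1 gave the processed signal, an intensity with the background subtracted and no normalization between arrays. The series table deposited by the authors holds log2 values of the same arrays and was used as an alternative. Of 45018 spots 1639 controls were left out. The processed signal of 43379 spots was quantile normalized and put on the log2 scale, 919 outlier spots over all arrays were left out, and spots of a probe were averaged (R 4.3.3, limma 3.58.1, the data.table package in version 1.17.8, matplotlib 3.10.9). No spot was saturated. Accessions named 25097 probes and 17305 genes through RefSeq, and 16077 probes stayed unnamed.

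Groups came from the labels, which give 4 weeks of age where the study's paper gives another age. A single limma fit (lmFit, eBayes) on genotype gave all comparisons with Benjamini-Hochberg adjustment over 41174 probes. The p-values measure the spread between arrays, each a pool of islets, and 3 arrays a genotype limit the precision. Kcnmb1, above background on no WT array, is given as a bound against the higher of its own signal and the lowest signal called above background on each WT array. A gene was named when it stood on a list of 35 islet or lymphocyte channels, was past the criteria, had, where none passed, among the 3 smallest p of genes detected on all arrays of the higher genotype (a filter that the difference itself can decide), had disagreeing probes, or was a partner gene past the criteria. Genes named outside this rule (Abcc8, Kcnd2, Kcnq1ot1, genes gained under an alternative and members of detection classes) were chosen after their values were seen. Counts cover all members, and some members are not reported here by name. The members and lists were chosen with earlier results of these data known. Same-numbered arrays share a slide and a scan, so the replicate block is also the slide block, and the numbers did not pair the arrays by their values (5 of 18 pairs with a correlation above 0.1, and a median of −0.03). Scripts were tested on simulated data. Alternatives were 75th percentile scaling, normexp (offset 50) on the median signal, the one in the files used here, a filter on dim probes, outlier spots kept, only the groups compared, the replicate block, array weights, the authors' values, the mean of all probes, no fold criterion, the study's limits (0.2, and 0.3 for POKO vs. ob/ob), and each array left out.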

Additional observations from a re-analysis of the deposited data

How the results depend on the processing

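The 11 channel genes that rose or fell in ob/ob became 3 with normexp background correction, 3 with only the groups compared (Cacna2d2, Kcnmb1, Scn10a) and 23 with array weights, and 1 to 18 with an array left out. The 1 gene in POKO vs. WT became 2 with 75th percentile scaling, 0 with normexp, 3 with the filter on dim probes, 11 with array weights, 2 with the authors' values, 2 with the mean of all probes, and 0 to 3 with an array left out. With only the groups compared it was Kcnmb1 in place of Kcnj12. The 0 in ob/ob vs. PPARγ2KO became 1 with array weights and 0 to 1 with an array left out, and the 0 in POKO vs. PPARγ2KO became 1 (Kcnj12) at the study's limit of 0.2 and 0 to 3 with an array left out. PPARγ2KO vs. WT and the interaction ranged from 0 to 1, and POKO vs. ob/ob stayed at 0. Among these alternatives the share of named genes is given only without WT array 3 (11.8% in ob/ob vs. WT). The other counts therefore cannot show whether channel genes depended on the processing more than other genes did. Normexp adds 50 to every signal, which shrinks differences of dim genes, and for the other settings the cause was not tested. Of the 12 calls, Kcnmb1 was kept in 20 of 21 alternatives, Kcne3 and Kcnip1 in 16, Kcnj12 in 15 (ob/ob) and 14 (POKO), and the others in 8 to 12. The alternative that lost Kcnmb1, which was above background on no WT array, was normexp, with a log2 difference of 0.17. Normexp kept Kcne3, Kcnip1 and Kcnj8. No call reversed. With the replicate block 11 genes passed in ob/ob vs. WT, of which Kcnh1, Kcnj1, Kcnk12 and Scn8a were new, and 8 of the 12 calls were kept. Over all probes the median ob/ob difference moved from −0.08 to −0.19 with 75th percentile scaling, and that of the channel genes from 0.34 to 0.42. The channel median in ob/ob vs. WT was 0.22 without WT array 1, 0.23 without WT array 2 and 0.43 without WT array 3, and in POKO vs. WT 0.12 without WT array 3. These medians were added after the data had been seen. The lowest log2 signal called well above background was 2.58 to 4.04 over the arrays, which limits what can be said of 33 channel genes.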
